A study of Saccharomyces cerevisiae with 2 samples.

Results

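The sample described here was a culture of budding yeast that recovered from hydroxyurea in the presence of the iron chelator BPS, and its DNA breaks were read against those of G1 DNA on 1 microarray. It is 1 of the 2 samples of the study, and all 41480 probes of its array were used. The strain was WFA73 with the genotype mec1. Cells in log phase were held in G1 with alpha factor, released into S phase in 200 mM hydroxyurea for 1 h, filtered free of the drug, and left to recover for 1 h in fresh medium with 0.8 micromolar BPS. The other array held a culture of the same strain and genotype, treated the same way except that BPS was left out, and its values are given beside some of those of the first, and silence on them says neither that they were alike nor that they differed. Both arrays were labelled with DNA of the mec1 G1 control in Cy5 and recovery DNA in Cy3, and the same control DNA may have served both. The labels do not say which mec1 allele WFA73 carries or what else differs in its genotype.

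Mec1 is the checkpoint kinase that holds stalled replication forks together, the yeast counterpart of human ATR. Hydroxyurea inhibits ribonucleotide reductase, an iron enzyme that makes deoxynucleotides, so that forks slow down or stop close to the origins at which they started; forks that stall without Mec1 are known to break once synthesis resumes. BPS (bathophenanthroline disulfonate) binds iron outside the cell, and iron is needed by ribonucleotide reductase and by the iron-sulfur enzymes, among them the replicative DNA polymerases. In Break-chip, chromosomes are embedded in agarose to keep them from shearing, their broken ends are filled in with a dye-coupled nucleotide, and the DNA is then freed, sonicated and hybridised to a tiling array. The study asked whether the chelator, present during recovery, alters where breaks form.

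Ratios were converted to log2 and set to a median of 0, so that each value states the signal at a probe relative to the rest of the genome on the same array. The direction was not stated: recovery over G1 is likely, since the columns carry the names of the recovery samples, but G1 was the Cy5 channel and a ratio of Cy5 over Cy3 would turn every sign given here. Extra copies of DNA near origins cannot be told apart from labelled ends, and the total amount of breakage is not on this scale. With 1 array, no value has a replicate check and no test was made. Errors given below are quartiles or standard deviations over probes, domains or genes of the array, which do not stand for repeat cultures.

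The array had probes on 16 chromosomes, with a median of 257 bp between neighbours and 59 probe-free gaps over 4 kb. The ratios had a median of 1.23, with a lowest value of 0.0048 and a highest of 21.8. On the centred log2 scale, the quartiles lay at -0.59 and 0.61. Over 1 log2 unit above the median lay 5778 probes (13.9%), and over 1 unit below it lay 4733 probes (11.4%). Without BPS these were 3932 and 3203 probes, and the quartiles were -0.53 and 0.57. The noise of a single probe, estimated from the differences between neighbours, had a robust SD of 0.31 (0.27 without BPS). The array with BPS was thus both wider in range and more variable from probe to probe. Differences between neighbours also hold any narrow signal, which this estimate does not set apart from noise.

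Broad domains made up most of the signal. A track smoothed with a window of 4 kb around each probe, which averaged a median of 15 probes, held 70.4% of the variance of the probes. It ran from -2.51 to 2.07, against -1.69 to 1.66 on the array without BPS. A domain was called high or low where this track left its median by 0.5 robust SD, which was 0.40 log2 units. It lasted until the track passed 0.5 robust SD on the other side. The border was set at the last crossing of the median before that point. On this rule the genome fell into 224 high and 229 low domains, and the high ones held 53.5% of the probes.

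High domains had a median width of 20.3 kb (quartiles 12.2 and 33.7 kb, n = 172 domains bounded on both sides). Low domains had a median width of 23.4 kb (quartiles 14.3 and 34.6 kb, n = 168). Without BPS these medians were 21.5 and 24.6 kb. The high domains spread over a wider range than the low ones, from 3.99 to 101 kb against 3.10 to 66.2 kb, and 9 high domains but 2 low ones were 60 kb wide or more. Most high domains were modest in size: 23 were under 10 kb, 63 were from 10 to 20 kb, 62 from 20 to 40 kb, and 24 were wider.

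**Figure D1:**
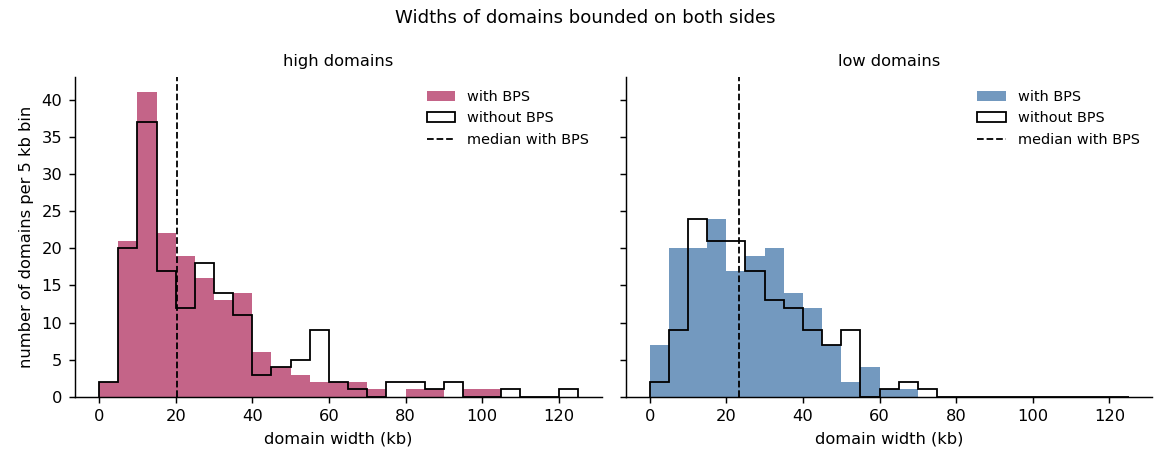
Widths of domains bounded on both sides, in bins of 5 kb, with the number of domains on the vertical axis. Filled bars show the array with BPS, black outlines the array without it, and the dashed lines its medians with BPS (20.3 kb for high and 23.4 kb for low domains). The high domains pile up between 10 and 15 kb and trail off to 101 kb.

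A high domain rose to a median of 1.31 at its summit (quartiles 1.03 and 1.51), while a low domain sank to -0.89 at its floor (quartiles -1.20 and -0.66). Without BPS the medians were 1.06 and -0.83. Wider domains were also more extreme, with a Spearman coefficient of 0.64 between width and height over 172 high domains and of 0.81 between width and depth over 168 low domains. Both are descriptions of the same smoothed track. High domains with a single summit numbered 97 and had a median width of 13.05 kb. The 42 with 2 summits had a median width of 28.4 kb, and the 33 with 3 or more had one of 44.9 kb. Wide high domains were thus runs of neighbouring summits. By the rule above, the track between such summits did not pass the step below its median that ends a high domain. Whether it crossed the median there by less than that step was not measured.

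Borders between high and low domains were short beside the domains. From 0.5 robust SD on one side to 0.5 on the other the track took a median of 5.96 kb (quartiles 4.17 and 9.07 kb, n = 391 borders). Without BPS this was 6.74 kb over 362 borders. The track averages over 4 kb, which widens a border by itself, and borders under other windows were not measured. Centres of neighbouring high domains lay a median of 49.3 kb apart (quartiles 38.0 and 65.6 kb, n = 168), with extremes of 10.5 and 159.99 kb. The array without BPS had a median spacing of 53.3 kb.

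Correlation between probes was also described by distance, which needs no threshold. The correlation of log2 ratios between probes of a chromosome was 0.76 under 0.5 kb apart, 0.68 at 1 to 1.5 kb and 0.50 at 4.5 to 5 kb, and it reached 0 at 17.5 kb. It was lowest at 28.0 kb, with -0.10. At 49.0 to 49.5 kb, near the median spacing of high domains, it was -0.03 on both arrays, so that spacing did not appear as a peak above 0. Without BPS the correlation was 0.76, 0.73 and 0.56 at the first 3 of these distances and reached 0 at 18.5 kb. The steeper start with BPS shows in the first 1.5 kb, over which the correlation fell by 0.105 with BPS and by 0.051 without it. These are descriptions over probe pairs of 1 array, of which 57031 lay under 0.5 kb apart.

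**Figure D2:**
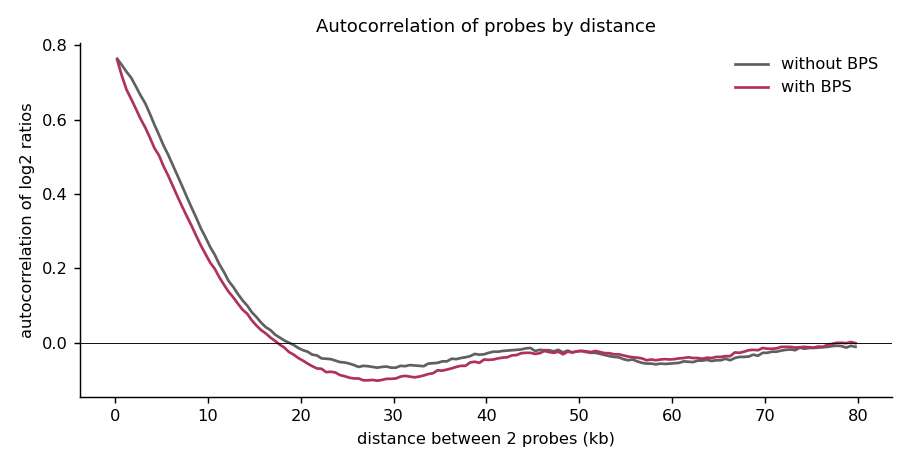
Correlation of centred log2 ratios between probes of the same chromosome (vertical axis) against the distance between them in bins of 0.5 kb (horizontal axis). The curve with BPS starts at 0.76, falls faster over the first 1.5 kb than the curve without BPS, crosses 0 at 17.5 kb and is lowest at 28.0 kb with -0.10.

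The widest high domains were chains of 4 to 6 summits. Gene names below mark the place of a domain's highest or lowest point and say nothing of the gene's part in it, and kb positions are those of the deposited table. The widest spanned 101 kb of chromosome XV, from 264.1 to 365.1 kb, with 6 summits, the highest at TOS7, and a mean of 0.45 (0.36 without BPS). On the same chromosome a domain of 99.5 kb, from 424.9 to 524.3 kb, had 5 summits and a mean of 0.56. Its highest point, 1.87, lay in SLD7, whose product helps to load replication proteins at origins. Between the pair lay the third widest low domain of the genome, 59.2 kb with its floor of -1.09 in HMS1, a gene for a transcription factor.

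The next widest high domains lay at SPP1 on XVI (89.1 kb), a subunit of the COMPASS histone methyltransferase, at the RNA helicase gene PRP22 on V (83.0 kb), and at HCM1 on III (74.0 kb), a forkhead transcription factor active in S phase. Domains of 59.0 to 66.6 kb followed at TOF2 on XI, TOS3 on VII, beside YBR085C-A on II, at EMC1 on III and at PGC1 on XVI. Of these 10 domains, that at PGC1 had the lowest mean (0.27) and that beside YBR085C-A the highest (0.61). Their means lay near those of the array without BPS, for example 0.52 against 0.53 at SPP1, with the widest gap at EMC1, 0.425 against 0.57.

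Among the widest low domains, that at TRM5 on VIII, a gene for a tRNA methyltransferase, spanned 66.2 kb with a mean of -0.66 (-0.52 without BPS). The domain beside COP1 on IV, which encodes a coat protein of Golgi vesicles, spanned 63.7 kb with a mean of -0.70 (-0.55 without BPS). Deeper means belonged to NUR1 on IV (49.6 kb, -0.95), YTM1 on XV (56.2 kb, -0.90) and ROM2 on XII (57.1 kb, -0.88). The low domain at YLR278C on XII, 52.5 kb wide with a mean of -0.87 (-0.92 without BPS), fell to a single floor of -1.61. The other widest low domains, at RRP5 on XIII, VHC1 on II and RQC1 on IV, had means from -0.66 to -0.31. The shallowest, at RQC1, was at 0.01 without BPS.

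Several of the narrowest domains had other values on the array without BPS. The narrowest high domain, 3.99 kb at GAP1 on XI, the general amino acid permease, had a mean of 0.34 over 16 probes and -1.10 on the array without BPS. At PMD1 on V a high domain of 4.80 kb had a mean of 0.43 (-0.12 without BPS), and it bordered on a low one of 4.45 kb beside GLC7, the catalytic subunit of protein phosphatase 1, with -0.43 (-1.09 without BPS). The narrow low domain at FUS1 on III, a cell fusion gene induced by mating pheromone, spanned 3.30 kb with a mean of -0.36 over 12 probes and stood at 0.47 without BPS. Low domains of 3.61 kb beside RHB1 on III and of 3.67 kb beside YAT1 on I stood at -0.52 and -0.42, against -0.80 and -0.98 without BPS. The low domain of 3.10 kb beside RPC17 on X, a gene of RNA polymerase III, stood at -0.56 (-0.36 without BPS). The 3 other narrow high domains, beside SWH1 on I, at IRA1 on II and beside TRK2 on XI, were 6.18 to 6.48 kb wide with means of 0.55 to 0.63, against 0.09 to 0.43 without BPS.

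**Figure D3:**
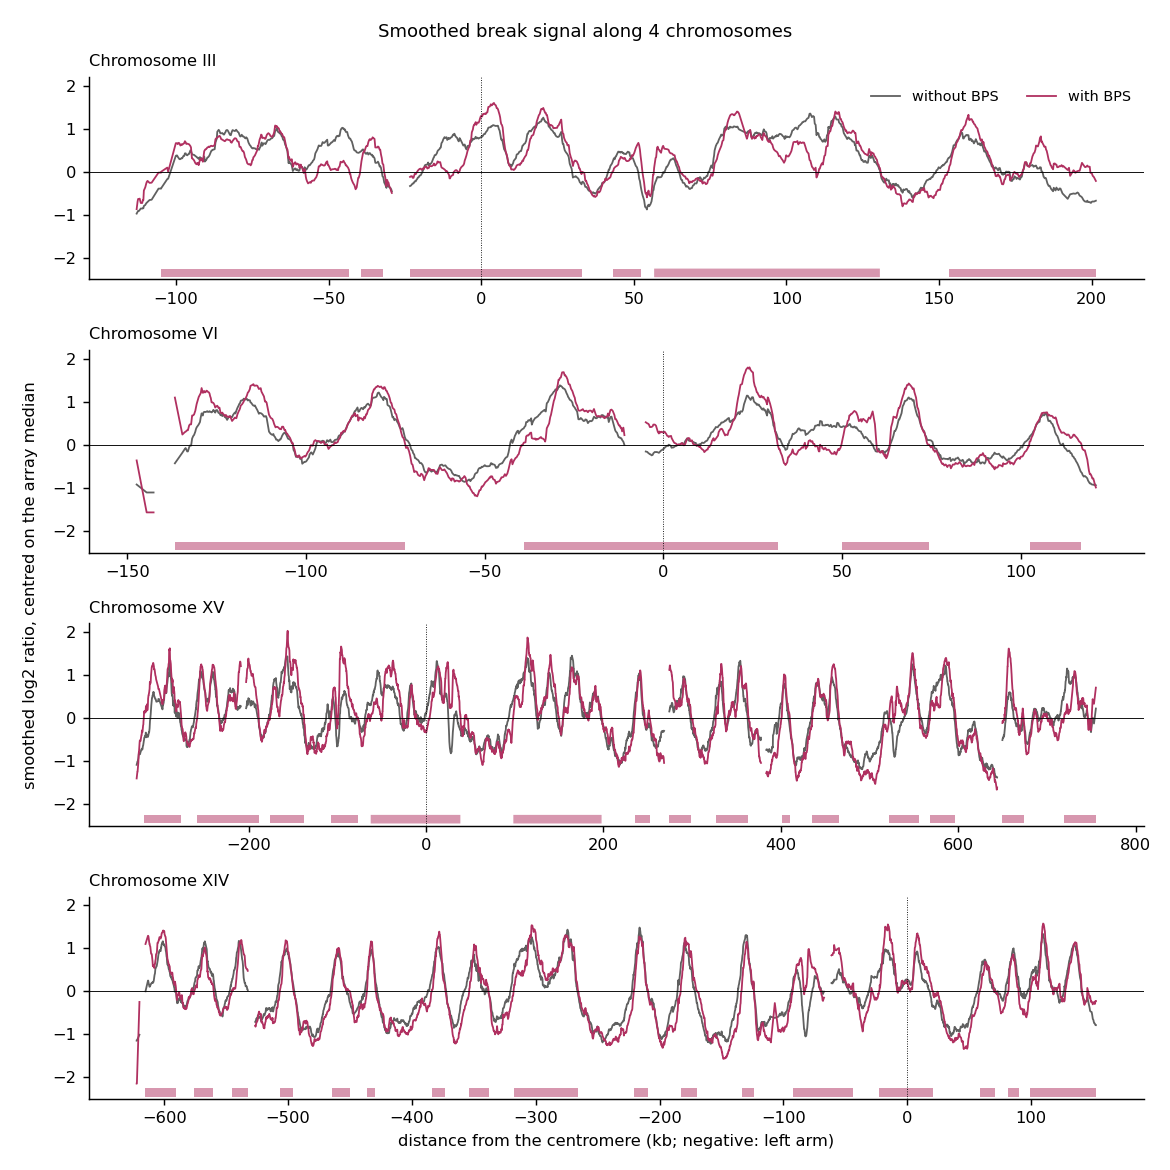
Smoothed log2 ratio (vertical axis) along chromosomes III, VI, XV and XIV against distance from the centromere in kb (horizontal axis, negative on the left arm), with BPS in red and without it in grey; breaks in a line are probe-free gaps over 4 kb and bars mark the high domains with BPS. Chromosome XV shows the 2 widest high domains, of 101 and 99.5 kb, and the sharper summits and troughs of the array with BPS.

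Chromosomes differed both in how many domains they held and in how much of them was high. Every chromosome had between 1.48 (XV) and 2.32 (XIV) high domains per 100 kb. The share of probes in high domains ran from 44.9% on IV to 83.3% on III. After III came VI with 67.5% and II with 60.7%. Gene content was close in both kinds of domain: 71.4% of their probes lay in protein-coding genes, against 74.3% in low domains, and the median length of those genes was 1239 and 1278 bp. Of 275 tRNA genes, 159 (57.8%) lay in high domains, close to the 53.5% of all probes there.

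Of the 32 chromosome arms, 20 had a median above 0 (18 without BPS). The highest were VIL at 0.40 (quartiles -0.29 and 0.94), IR at 0.36 (-0.11 and 0.74) and IIIL at 0.36 (-0.05 and 0.73). By the mean over probes IR was at 0.077, so its place rests on the use of medians. The lowest were IVR at -0.16 (-0.79 and 0.50), XIVL at -0.19 (-0.75 and 0.51) and IL at -0.25 (-0.84 and 0.41). Without the outer 20 kb IL was at -0.15, above XIVL at -0.21 and IVR at -0.17. Differences between arms were small beside the spread within them, since the gap between quartiles was 0.78 to 1.32 wide with a median of 1.16 over arms.

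Short arms were on the whole higher than long ones. Of 10 arms under 200 kb, 9 had a median above 0, and of 14 arms over 400 kb, 5 did. The Spearman coefficient between length and median was -0.72 over the 32 arms, which share the array and include the ends and the centromere in unequal parts. Leaving out the 20 kb beside the centromeres gave -0.66, leaving out the outer 20 kb gave -0.69, and leaving out arm IL, the low exception among short arms, gave -0.81. The coefficient was -0.58 on the array without BPS.

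The left and right arms of a chromosome differed by over 0.2 in 6 of 16 cases. The widest gap was on chromosome I, where the left arm was 0.61 below the right. On XV, VI, XII and VIII the left arm was above the right by 0.34, 0.31, 0.31 and 0.28. Chromosome I was also where the arrays differed most by arm: without BPS its left arm stood at 0.06 and its right arm at -0.08. On that chromosome the outermost left 23.2 kb formed a low domain with a mean of -1.84 (-0.71 without BPS), and low values of chromosome I recur below among the narrow spikes.

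**Figure D4:**
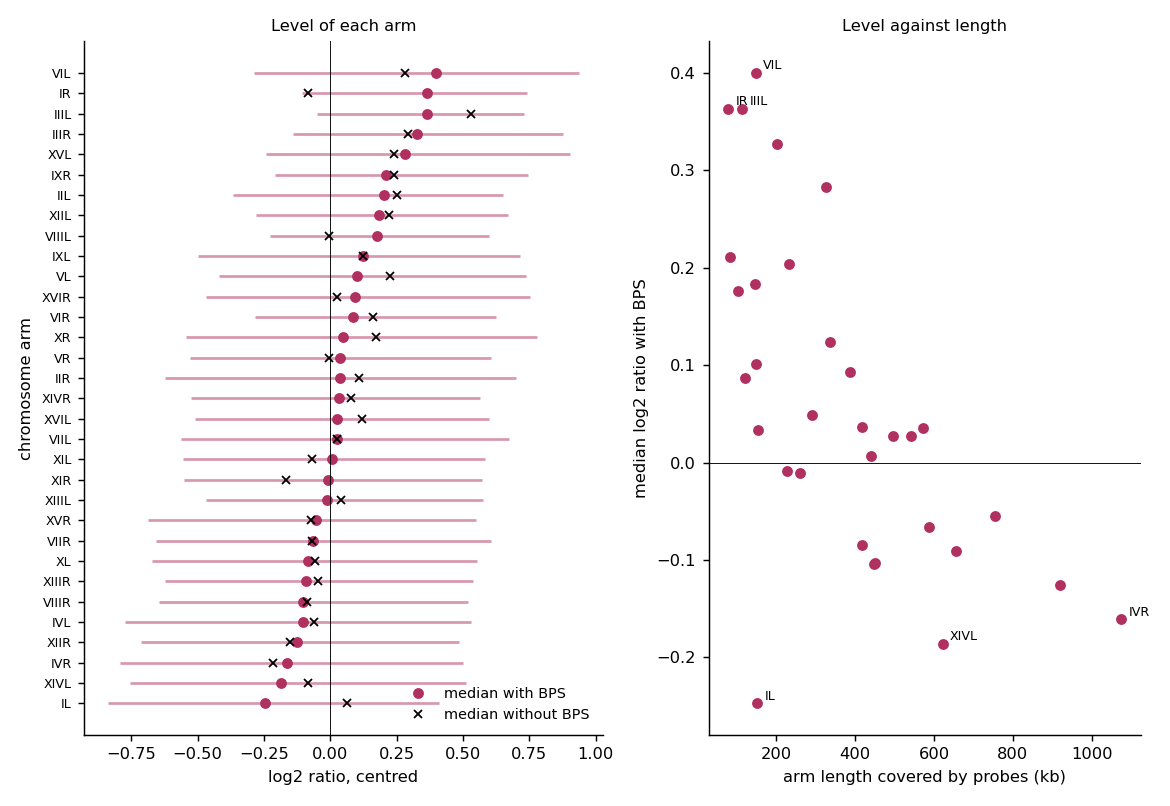
Left: median centred log2 ratio of each arm with BPS (red points; lines are the 25th to 75th percentile of its probes) and without BPS (crosses), in order of the value with BPS. Right: the medians with BPS against the length of the arm covered by probes in kb; 9 of 10 arms under 200 kb lie above 0, and IL, at -0.25, is the exception.

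Signal was high around centromeres and uneven towards the ends. Within 5 kb of a centromere the median was 0.49. It was 0.45 at 10 to 20 kb, where 87.6% of probes lay in high domains, 0.25 at 20 to 30 kb and 0.02 at 30 to 40 kb, and 50 to 75 kb away it was -0.14. Counted inwards from the outermost probe of each arm, the median was -0.28 over the first 5 kb, 0.12 at 5 to 10 kb and 0.46 at 10 to 20 kb, and then 0.28 at 20 to 30 kb. On the array without BPS the first 3 of these were -0.75, -0.31 and 0.17, and at 20 to 30 kb it was 0.29. Taken end by end, the median of the outer 20 kb was higher with BPS at 28 of 32 ends and lower at both ends of I, the right end of X and the left end of XIII. Probes near ends can share sequence with other ends, and the part of this in the difference was not tested.

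Narrow features were taken as runs of 2 or more neighbouring probes that left the median of the probes within 2.5 kb either side, the same way, by 2 robust SDs of that residual. The limit was 0.63 log2 units. There were 280 narrow dips and 160 narrow spikes, against 233 and 104 on the array without BPS at its own limit of 0.49. Dips had a median width of 367 bp and a median residual of -1.07 (-0.81 without BPS), and spikes had 275 bp and 0.83 (0.63 without BPS). Sheared fragments averaged 500 bp, per the labels' protocols, so that most of these features were no wider than a fragment. Dips of 3 or more probes numbered 101 with BPS and 31 without, and spikes of that size 24 and 20.

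Dips lay mostly between genes, and spikes did not. The array design appears to leave tRNA genes without probes, and a chromosome was taken as lined up if its tRNA genes held 0 probes in place. By this rule gene positions lined up with the probes on 13 of the 16 chromosomes, with 222 tRNA genes. Of the 226 dips there, 152 (67.3%, 95% Clopper-Pearson interval 60.7 to 73.3%, which covers counting error only) lay between protein-coding genes, where 27.3% of probes lie. Of these, 61 lay between divergent genes, that is between 2 gene starts, 66 between genes in tandem and 23 between convergent genes, and 2 lay outside the outermost genes. Of the 130 spikes, 32 (24.6%, interval 17.5 to 32.9%) lay between genes. Without BPS, 73 of 187 dips (39.0%) did. With the tRNA genes moved along the chromosome, those of the 13 held a mean of 58.2 probes. On I, with 4 tRNA genes, that mean was only 1.22, so holding 0 in place is a weak check there. The mean was also low, from 2.56 to 3.28, on IX, III, VIII and VI.

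A large part of the dips sat at tRNA genes, which are short and strongly transcribed by RNA polymerase III. On the 13 chromosomes, 82 of 226 dips (36.3%) lay within 500 bp of a tRNA gene, where 2.37% of probes lie. Among dips of 3 or more probes, 49 of 82 did, and 70 of these 82 lay between genes. Of the 130 spikes, 3 lay as close to a tRNA gene. On the array without BPS, 20 of 187 dips (10.7%) did. With the tRNA genes set aside, 74 of the 144 remaining dips (51.4%) still lay between genes, and 57 of 167 (34.1%) on the array without BPS.

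The deepest dips by mean residual were each of 2 to 4 probes. The first, beside YBR012W-B on II, had log2 ratios of -2.37, -2.36 and -1.18 at 3 probes, a mean residual of -2.44. It lies next to a probe-free gap, as the tenth, at YGR039W on VII, does. YBR012W-B is a frame of a Ty retrotransposon, which has many near-identical copies. At YOR389W, near the right end of XV, the probes had -1.95 and -2.10 (-1.34 and -0.89 without BPS).

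At YJL028W on X the probes had -2.38 and -2.37 (-1.59 and -1.57 without BPS), and the dip lies within 500 bp of EMT5, a gene for methionine tRNA. Beside GMC1 on IV, 3 probes at -0.84, -1.75 and -0.89 lay within 500 bp of the tRNA gene YNCD0031C, in surroundings about 2.24 higher. Their levels without BPS were alike at -0.90, -1.26 and -1.15, but there the surroundings were low too, and the residual was -0.46. The 4 probes beside MRX10 on IV behaved the same way, with levels of -0.60, -1.51, -1.48 and -0.32 with BPS and of -1.01, -1.37, -1.44 and -1.21 without, and residuals of -2.10 and -0.63.

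The other 4 deep dips were of 2 probes each. The one at YDL129W on IV rested on a single probe: a probe at -3.36 stood next to one at -0.46, and without BPS it read 0.75. Beside CWC27 on XVI a probe at -2.54 stood next to one at -0.98, and without BPS it read 0.85. At UBC9 on IV, the SUMO-conjugating enzyme, the probes read -0.35 and -1.82, against -0.75 and -0.91 without BPS. At URB1 on XI, a gene of ribosome assembly, they read -2.18 and -1.39, against 0.55 and -1.15. Of the 10 deepest dips, 2 lay by a gap and 1 near a chromosome end. The 7 on chromosomes whose gene positions line up included 3 between genes and 1 near a tRNA gene, and for those on II, X and XI the place relative to genes is uncertain.

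Of the 10 strongest spikes, 4 lay on chromosome I, 3 of them near its left end. Beside the flocculin gene FLO1, at 202.7 to 203.4 kb, 4 probes read 1.31, 0.89, 0.60 and 0.84 (0.63, 0.42, 0.19 and 0.26 without BPS) in surroundings about 3.01 lower. Beside YAL064W-B on the left arm, 3 probes read -0.21, 0.16 and 0.28, which was a spike of 2.18 over its surroundings, and those beside PAU8 and SEO1 were of the same kind, at -0.72 and -0.93 on average. Of these 4 groups, that beside FLO1 was above the genome median and the other 3 were near or below it, in surroundings that were lower still. Flocculin and seripauperin genes have near-identical relatives at other chromosome ends, and such probes can take signal from several places.

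Spikes away from chromosome I rose from surroundings of all levels. At YGL039W on VII, a gene for an oxidoreductase, 2 probes read 3.19 and 2.36 (1.58 and 0.93 without BPS), and this gene also had the highest mean of all genes, 2.28 ± 0.71 (SD over 4 probes). Beside TOF1 on XIV, a component of the complex that steadies paused forks, they read 2.16 and 2.30 (1.15 and 0.96 without BPS). In PFS1 on VIII, near a tRNA gene, 3 probes read 2.12, 1.97 and 1.94. At MET13 on VII, a folate-cycle reductase, the probes read 1.02 and 1.28, and without BPS -0.11 and -0.45. In ALY2 on X the spike rested on a probe at 1.87, beside one at 0.13. Beside PAU19, near the right end of XIII, the probes read 0.04 and 0.02, in low surroundings. Of the 10 spikes, 4 lay near a chromosome end, and of the 9 on lined-up chromosomes, 6 lay between genes and 1 near a tRNA gene. These 9 include the 4 on I, where the match of gene positions is least sure.

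Over the whole array, genic and intergenic probes differed little in level and more clearly in the residual from their surroundings. The 24598 probes in protein-coding genes had a median level of 0.004 and the 9179 between genes one of -0.03. Their residuals had medians of 0.009 (quartiles -0.18 and 0.24) and -0.05 (-0.32 and 0.15). The lowest class was the space between divergent genes, where 2 promoters face away from each other, with -0.11 (quartiles -0.38 and 0.08, n = 3106 probes) and 63.0% of probes below 0. Tandem space had -0.03 over 4690 probes and convergent space, between 2 gene ends, 0.00 over 1383 probes.

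A residual below -0.5 was held by 8.72% of all probes on the 13 chromosomes, by 17.3% of those between divergent genes, by 12.4% of tandem and by 11.9% of convergent ones, and by 6.72% of those in genes. Without the probes within 500 bp of a tRNA gene, the medians of the 3 intergenic classes were -0.09, -0.02 and 0.00. Without BPS the class medians were -0.02, -0.004 and 0.003. The order was the same in high domains (-0.11 between divergent genes and 0.02 in genes) and in low ones (-0.11 and 0.00).

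Divergent space lay below genes on each of the 13 chromosomes, by a difference that ran from -0.21 on VI to -0.03 on I with a median of -0.12. On the array without BPS it also lay below on 13 of 13, by -0.07 to -0.003. The match of gene positions is least sure on I. Along 2923 genes of at least 1 kb, the residual was lowest, at -0.10, from 200 to 400 bp before the start of the reading frame. It was -0.05 in the last 100 bp before the start, 0.00 at 300 to 400 bp into the gene and 0.03 at 900 to 1000 bp. Single probes vary by far more than this, with quartiles of -0.37 and 0.08 at 300 to 400 bp before the start.

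The dip at tRNA genes was several times deeper than that before protein-coding genes. Within 250 bp of 222 tRNA genes, 456 probes had a median residual of -0.46 (quartiles -0.88 and -0.19), and 48.0% of them lay below -0.5, where all probes had 8.72%. Averaged by gene, 204 of 222 tRNA genes were below 0 and 104 below -0.5, with a range from -2.35 to 0.59. Without BPS the median was -0.06, 144 genes were below 0 and 20 below -0.5. Ty elements often neighbour tRNA genes and are left without probes. Without the probes within 1 kb of a gap the median was -0.455 over 385 probes.

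By chromosome the median over tRNA genes ran from -0.29 on VI (10 genes) to -0.80 on I (4 genes), and all 20 tRNA genes of V and all 14 of XIV were below 0. Genes with at least 3 probes within 250 bp, 41 in all, had a median of -0.62, and 39 were below 0. The 125 tRNA genes in surroundings above 0 had a median of -0.63 and the 97 in lower ones -0.39, a split that uses the same probes. The lowest gene was YNCN0009W on XIV, with a mean residual of -2.35 over 2 probes, and the highest YNCH0016C on VIII, with 0.59 over 2 probes. These genes, and the tRNA genes named below, were picked after their values were seen.

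The profile across tRNA genes was lopsided. Along the transcribed strand the median residual was -0.83 in the 100 bp before the middle of the gene and -0.57 in the 100 bp after it. Downstream it rose to -0.28 at 200 to 300 bp and to 0.00 at 500 to 600 bp. Upstream it stayed low, at -0.49 from 400 to 500 bp and -0.33 from 600 to 700 bp, and it was -0.10 from 700 to 800 bp. Without BPS the profile was shallower and leaned the same way, with -0.20 at 400 to 500 bp upstream and -0.02 at 400 to 500 bp downstream. Each of these bins held 54 to 90 probes, and the profile was not remade without probes beside gaps. Genes for other small RNAs had shallower medians within 250 bp, with -0.08 at 64 snoRNA genes, -0.03 at 20 other noncoding RNA genes and -0.17 at 5 snRNA genes, of which the last rests on 12 probes.

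A residual falls when the gene is lower or its flanks are higher, and in levels the arrays differed in both. With BPS the median level was -0.50 within 250 bp of the middle of a tRNA gene, 0.04 at 500 to 1000 bp and 0.28 at 1000 to 2000 bp. Without BPS it was -0.10, -0.08 and 0.01. Averaged by gene, the level was lower with BPS by over 0.2 at 130 of 222 tRNA genes, within 0.2 at 71 and higher by over 0.2 at 21. The share of all probes or genes that differed by as much between the arrays was not computed. These counts therefore do not show how far tRNA genes depart from the rest of the array.

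The 10 tRNA genes of lowest residual with BPS were chosen on that array, which by itself favours high flanks there. Within 250 bp of them the medians were -1.69 with and -1.28 without BPS, and 8 of the 10 averaged below -1 on both arrays. The flanks differed more: at 1000 to 2000 bp the medians were 0.81 with and -0.55 without BPS, and at 2000 to 5000 bp they were 0.68 and -0.20. At YNCN0009W, for example, the 2 probes averaged -1.51 with and -1.62 without BPS, at YNCO0013C on XV -1.44 and -1.49, and at YNCD0031C on IV -1.16 and -1.10. At 7 of the 10, the level was below -1 at the gene on both arrays, with local surroundings above 0 with BPS and below 0 without. The others broke this pattern: YNCE0027C on V averaged -2.52 with and -0.34 without BPS, YNCN0011W on XIV -0.36 and -0.23, and YNCI0005W on IX -2.03 and -1.74 with surroundings below 0 on both. At the other 212 tRNA genes the medians within 250 bp were -0.48 and -0.05, and at 1000 to 2000 bp 0.25 and 0.06.

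**Figure D5:**
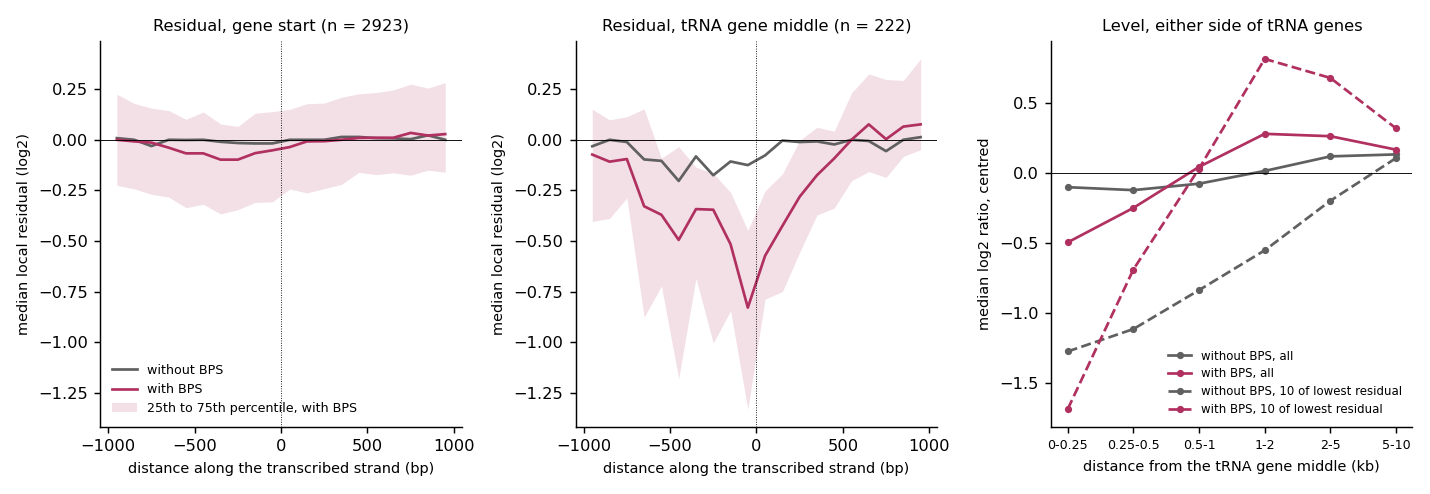
Left and middle: median residual from the local level (log2) in bins of 100 bp along the transcribed strand, around the starts of 2923 genes and the middles of 222 tRNA genes, with BPS in red (band: 25th to 75th percentile) and without in grey. Right: median centred log2 ratio by distance from the middle of tRNA genes, for all 222 (solid) and for the 10 of lowest residual with BPS (dashed); the medians of these 10 are -1.69 with and -1.28 without BPS at the gene and 0.81 and -0.55 at 1000 to 2000 bp.

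Whole genes were set against the same scale by the mean of their probes. Over 5650 genes with a probe the median was 0.02, 699 genes (12.4%) were over 1 above and 466 (8.25%) over 1 below. The lowest gene was YBR013C on II, at -2.72 on a single probe (0.08 without BPS). Gene length made little difference to means within genes: the median was -0.03 for genes under 500 bp, 0.04 for those of 1000 to 2000 bp and -0.03 for the 70 measured reading frames of at least 5 kb. With 0.5 kb either side of each gene included, the median of the long frames was -0.479, and the cause of this shift was not tested. In these long frames 6 were over 1 above and 5 over 1 below, the highest being the kinase gene TOR2 at 1.51 ± 0.29 (SD over 25 probes) and the lowest CSF1 at -1.13 ± 0.43 (33 probes).

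Genes of iron biology were spread over high and low domains. Of 29 measured genes for iron uptake and storage, 7 were over 1 above and 1 over 1 below, with a median of 0.39 (quartiles -0.55 and 0.65; 0.03 without BPS). That median was 0.098 with 0.5 kb either side of each gene included and 0.023 after subtracting the smoothed track. The highest was TIS11, which degrades messenger RNAs when iron is short, at 1.35 ± 0.43 (2 probes; 0.39 without BPS). The lowest was FRE1, a surface ferric reductase, at -1.02 ± 0.29 (9 probes; -0.34 without BPS). Others over 1 were FTH1 at 1.32, FIT1 at 1.28, FRE4 at 1.23, ARN2 at 1.21, ENB1 at 1.17 and FRE3 at 1.05. ARN2, a siderophore transporter, stood at -0.45 without BPS, while FRE3, FRE4 and FIT1 were at 0.86 to 1.02 there. ARN2 lies towards the left end of VIII. How near the other genes over 1 lie to chromosome ends was not measured.

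Of 27 genes for assembling iron-sulfur clusters, 3 were over 1 above and 2 over 1 below, with a median of -0.11 (-0.02 without BPS). The highest was the ferredoxin gene YAH1 at 1.46 ± 0.88 (2 probes), and the lowest the co-chaperone gene JAC1 at -1.70 on 1 probe. Of 21 iron-sulfur enzymes, 4 were over 1 above and 5 over 1 below, with a median of -0.16 (0.13 without BPS). Of those 5, 4 encode catalytic subunits of DNA polymerases: POL1 (alpha) stood at -1.22 ± 0.35 over 16 probes, REV3 (zeta) at -1.21, POL3 (delta) at -1.14 and POL2 (epsilon) at -1.12. Without BPS they stood at -1.04, -0.85, -1.05 and -0.98, so these loci were low on both arrays. The highest of the enzymes was SDH2 of succinate dehydrogenase at 1.17 ± 0.27 (4 probes). The 8 genes of heme synthesis ran from 0.04 (HEM15, ferrochelatase) to 1.24 (HEM14), with 1 over 1 above and a median of 0.38 (0.065 after subtracting the smoothed track; 0.43 without BPS).

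Of 11 genes of ribonucleotide reductase and its regulators, 0 were over 1 above and 1 was over 1 below, with a median of -0.22 (-0.04 without BPS). They ran from 0.70 ± 0.83 (8 probes) at RAD53, the checkpoint kinase below Mec1, to -1.05 ± 0.22 (6 probes) at DUN1, the kinase that raises reductase activity after damage. Of 24 replication fork and origin genes, 7 were over 1 above and 2 over 1 below, with a median of 0.42 (0.43 without BPS), from CDC6 at 1.27, which loads the helicase, to SLD5 of the GINS complex at -1.37. None of the 18 break repair genes passed 1 either way, and they ran from 0.77 at YKU70 to -0.68 at the helicase gene SRS2, with a median of 0.20 (-0.05 without BPS).

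Of 19 glycolytic genes, 5 were over 1 above and 0 over 1 below, with a median of 0.12 (0.59 without BPS). This median turned to -0.11 after subtracting the smoothed track. The highest was the enolase gene ENO2 at 1.62 ± 0.61 (4 probes), and the lowest GPM1 at -0.77 on 1 probe. Of 125 measured genes of cytosolic ribosomal proteins, 10 were over 1 above and 2 over 1 below, with a median of 0.20 (0.28 without BPS), from RPL3 at 1.72 ± 0.08 (4 probes) to RPS21A at -1.52 on 1 probe. Many ribosomal protein genes come in near-identical pairs, whose probes can share signal.

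The 500 bp before each gene were described on the 13 chromosomes whose gene positions line up, as a measure chosen after the values were seen. Over all genes, 1326 of 4782 (27.7%) had a mean residual below -0.25 there, with a median of -0.07, and without BPS 913 did (19.1%), with a median of -0.03. For glycolytic genes it was 7 of 14 with a median of -0.26 (6 and -0.17 without BPS). For ribosomal protein genes it was 57 of 109 with a median of -0.27 (28 and -0.06 without BPS). For reading frames of at least 5 kb, many of them in Ty elements, it was 40 of 85 (23 without BPS). Most of those below -0.25 with BPS were Ty frames, and the other long frames fell below it about as often as all genes did. The ribonucleotide reductase list had 5 of 9, the iron uptake list 7 of 27, the break repair list 2 of 16 and heme synthesis 0 of 8.

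The lowest stretches of the glycolytic list lay before ENO1 (-1.35 with and -0.91 without BPS), PFK2 (-0.80 and -0.17) and TDH3 (-0.59 and -0.87), which encode an enolase, a phosphofructokinase subunit and a glyceraldehyde phosphate dehydrogenase. ENO1 itself stood at 1.22, so that its upstream dip lay in a high domain. Among ribosomal protein genes the lowest were RPS23A (-1.47 and -0.96), RPL3 (-1.22 and -1.05) and RPL22B (-1.21 and -0.91). Over the whole lists, the stretch was lower with BPS before 8 of 14 glycolytic and 74 of 109 ribosomal protein genes, and before 2729 of 4782 of all genes.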

How the data were processed

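Break-chip signal was measured in 2 samples, 1 array each, and the array with BPS is described. The authors deposited 1 linear ratio per probe and array in a table that its name calls normalized; per the submitters' processing notes, the scanner software was Agilent Feature Extraction 9.5.1. The normalization, the numerator and the genome build are not given in the sources used here. A normalization between dyes removes differences in total breakage, and 1 dye orientation leaves dye bias in. The number of arrays limits the precision, and no signal over background was at hand.

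Every probe entered, without a filter or pseudocount. Smoothing, domains and narrow features were computed as given in the text with Python 3.11.15, numpy 2.4.6, pandas 2.3.3, scipy 1.17.1 and matplotlib 3.10.9, and tested on simulated data. Domains needed 5 probes and ended at gaps over 4 kb. Summits were maxima within 5 kb either side. Genes were named and ordered by RefSeq's table for assembly R64 (6431 nuclear genes, 6002 protein-coding, 275 for tRNA), whose coordinates are not printed. On II, X and XI its positions do not line up with the probes (11 probes inside 53 tRNA genes), so values by gene class, at tRNA genes and before gene starts leave these out. Names of regions and means of whole genes include them, and there may be off by a neighbouring gene.

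The members, lists and rules were chosen with earlier results of these data known. Named by rule were the 10 widest high and low domains, the 5 narrowest of each, the 10 strongest dips and spikes, the 3 highest and lowest arms and the extremes of each gene list; others were chosen after their values were seen. Alternatives were other windows, thresholds, positions and averages. Base composition was not analysed because no sequence was used here.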

Additional observations from a re-analysis of the deposited data

How the results depend on the processing

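Numbers of domains and features follow the thresholds that define them. Of 156 values recomputed under alternatives, 32 were counts, of which 23 stayed within 1.5 times the main count. Of the other 124, 73 stayed within the interval set around the main value and 10 turned sign. The signs that turned were the 6 given below and 4 medians of gene lists: glycolysis (-0.11), iron-sulfur enzymes (0.001) and long reading frames (0.007) after subtracting the smoothed track, and iron-sulfur assembly (0.004) with 0.5 kb either side. Domains that had to pass 1 robust SD numbered 148 high and 138 low, with median widths of 30.01 and 32.3 kb. The low width was 19.3 kb with smoothing over 1 kb either side, 28.7 kb over 5 kb and 17.4 kb at 0.25 robust SD. In that order the spacing of high domains was 41.8, 59.7 and 41.1 kb, and 77.8 kb at 1 robust SD. The track held 76.3% of the variance over 1 kb and 58.7% over 5 kb.

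Dips numbered 560 at 1.5 robust SDs (54.4% between genes) and 154 at 2.5 (78.0%), and spikes 452 and 55 (33.3% between genes at 2.5). With 3 or more probes, chosen after seeing the data, there were 101 dips (85.4%) and 24 spikes (36.4%).

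Genic minus intergenic level, 0.03, turned to -0.074 with genes moved 0.5 kb up and to -0.065 moved down, and was 0.062 with means. For the residual (0.06) these were 0.0027, 0.0089 and 0.13. Moved up, moved down and with means, the divergent residual was -0.0076, -0.063 and -0.19, the tandem -0.0044, 0.00 and -0.11, and the convergent 0.0043, 0.0285 and -0.053. Without probes by tRNA genes, an alternative added after seeing the data, they were -0.091, -0.021 and 0.0001. At tRNA genes, also added then, the residual was -0.37 within 0.5 kb and, with genes moved 1 kb, 0.0203 (up) and 0.00 (down). Moving genes breaks their match to the probes by construction.

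Without centring, all 32 arms were above 0, with 0.13 for IVR, 0.11 for XIVL and 0.0463 for IL. The cause of the other changes was not tested. Leaving out a replicate was not possible with 1 array. No paired analysis was possible because each group has 1 array and the labels carry no replicate numbers.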
